A study of Rattus norvegicus with 28 samples.

Results

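Vipr2 encodes VPAC2, a receptor of the class B (secretin) family for vasoactive intestinal peptide (VIP) and the related peptide PACAP. It is 1 of 156 named genes on a custom rat array for neurotransmitter, neuropeptide and cytokine genes, and 2 of the 228 features on that array, 226 and 227, are annotated to it. Both carry the same database entry in the platform annotation, so they are 2 features for 1 transcript and not 2 genes. The gene was chosen by the measured ratios of feature 227 across the 6 groups of arrays, so its ratios are given as a description, without a test of its own. Tests are given for other genes only, although the counts over all features include feature 227.

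On each of 28 arrays, RNA from a region of injected male rats and RNA from that region of uninjected controls were hybridised together in 2 colours. On postnatal day 3 the injected pups received either carrageenan, an inflammatory seaweed polysaccharide (0.25% in 0.9% saline, 1 µl per g), or saline into the left hindpaw, and were kept until day 59 after weaning on day 21. Groups were 5 arrays of PAG (usually the periaqueductal grey) after carrageenan, 5 of PAG after saline, 5 of RVM (usually the rostral ventromedial medulla) after carrageenan and 4 of RVM after saline. A further 5 arrays held the left lumbar dorsal horn (LDH) and 4 the right, all after carrageenan, and there was no saline group for the LDH. Controls differed only in having had no injection.

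Values are log2 ratios, where 1 means a doubling, read as injected over uninjected. That direction is likely rather than stated: the labels put the injected animal in channel 1 and the same dyes on every array. If the table ran the other way, every sign below would turn. Values of exactly 0 count here as not measured. The labels do not say whether 1 animal or several lie behind a group's arrays. P-values given here therefore describe array-to-array spread, part of which may be technical. Both groups of a region share the uninjected control of that region, so their ratios against it may not be independent of each other. Left and right LDH were compared as separate groups, although both sides may come from the same rats. Dyes were not swapped, so an effect of the dye and an effect of injection cannot be told apart in a ratio against the control. In tissue RNA, a lower ratio can mean fewer cells that express the gene or less of its RNA per cell, and these cannot be told apart.

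VIP and PACAP are co-released by neurons in many brain regions and by sensory neurons. VPAC2 couples mainly to the stimulatory G protein and so raises cyclic AMP in the receiving cell, as does the sister receptor VPAC1, encoded by Vipr1. VIP is best known in the brain for keeping the cells of the circadian clock in step through VPAC2, and in sensory neurons for its increase after nerve injury. The PAG and the RVM form the descending path that dampens or amplifies pain signals in the spinal dorsal horn.

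Feature 227 was among the more often measured features. It had a ratio on 25 of 28 arrays, whereas the median feature had one on 10.5 arrays, and 18 of 228 features had one on at least 25. It was below 0 on 19 of those arrays and above 0 on 6, with a median of -0.34. It was exactly 0, and so not measured, on PAG saline array 5, RVM carrageenan array 1 and LDH right array 1, which gave ratios for 33, 108 and 7 features in all. Feature 226 had a ratio on 5 arrays only. Most of what can be said about Vipr2 therefore rests on a single feature.

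In PAG after saline, feature 227 read -0.18, -1.04, -0.33 and -0.55 on arrays 1 to 4. In RVM after saline it read -0.52, -1.06, -0.75 and -0.38 on arrays 1 to 4. In RVM after carrageenan it read -0.047, -0.71, -0.34 and -0.30 on arrays 2 to 5. All 12 values of these 3 groups were below 0, and the values of the groups overlapped. Their means were -0.53 ± 0.38 (SD, n = 4) in PAG saline, -0.68 ± 0.30 (SD, n = 4) in RVM saline and -0.35 ± 0.27 (SD, n = 4) in RVM carrageenan. On the linear scale, single arrays lay between 0.48 and 0.968 times the control. Of 48 features with at least 3 measured arrays in each of these groups, 2 were below 0 on every measured array of all of them. Those were Vipr2 feature 227 and feature 88 of Grik3, a kainate receptor subunit. Vipr2 was picked with this pattern in view, so the count places it and is no evidence for it.

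In PAG after carrageenan, the arrays split. Feature 227 read -0.16, -0.57 and -0.48 on arrays 1, 2 and 3, and 4.57 and 5.26 on arrays 4 and 5. The first 3 lay within the range of the saline arrays or just above its upper end, and the other two stood at 23.7 and 38.4 times the control. The mean of 1.72 ± 2.93 (SD, n = 5) fell between both sets of values and described neither, while the median was -0.16. Without array 5 the mean was 0.84, and without array 4 it was 1.01. Of 77 features measured on all 5 of these arrays, feature 227 had the second largest spread (rank 2 by SD), against a median SD of 0.66.

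**Figure D1:**
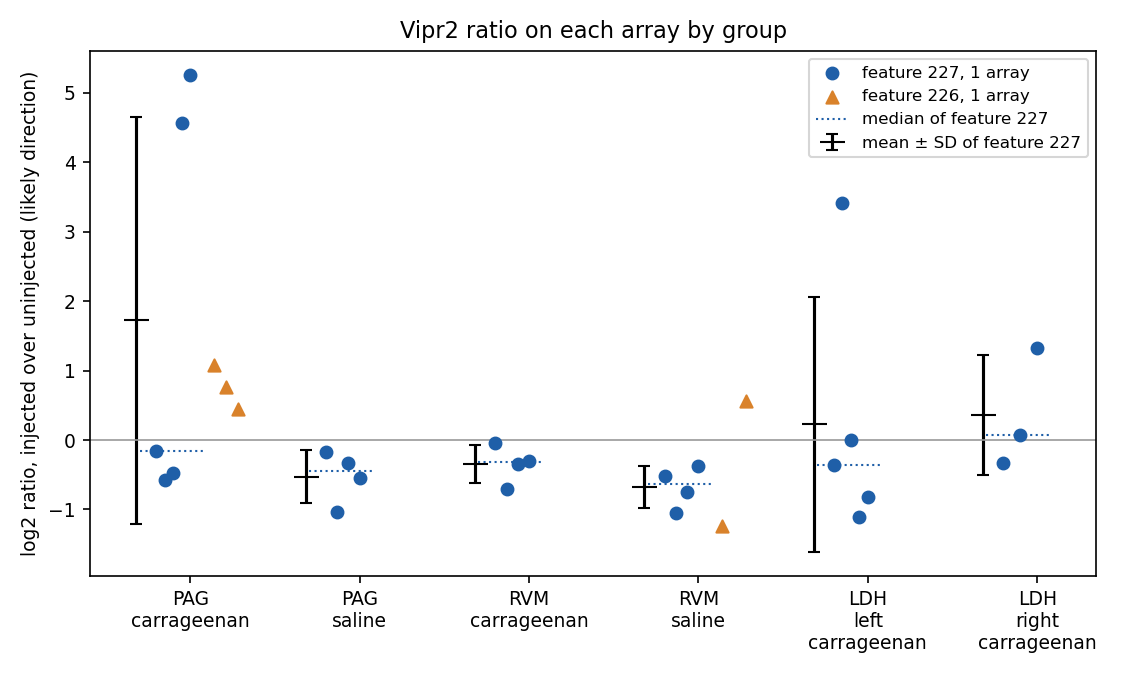
Log2 ratio of Vipr2 on each array (vertical axis) for the 6 groups (horizontal axis); circles are feature 227, triangles feature 226, the black dash and bar the mean ± SD of feature 227 and the dotted line its median. PAG carrageenan has 2 arrays near 5 and 3 arrays just below 0, the saline groups and RVM carrageenan lie wholly below 0, and LDH left has 1 high array at 3.42.

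The dorsal horn showed a similar unevenness on a smaller scale. On the left, the side of the injected paw, feature 227 read -0.36, 3.42, 0.005, -1.12 and -0.82 on arrays 1 to 5. The mean was 0.22 ± 1.83 (SD, n = 5). Without array 2 it was -0.57 ± 0.50 (SD, n = 4), and the median of all 5 was -0.36. On the right it read -0.33, 0.07 and 1.33 on arrays 2 to 4, a mean of 0.36 ± 0.87 (SD, n = 3). Without array 4 the mean of the right side was -0.13. The right-side values all lay within the range of the left.

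Ordered by mean, the groups ran from PAG carrageenan (1.72) through LDH right (0.36), LDH left (0.22), RVM carrageenan (-0.35) and PAG saline (-0.53) to RVM saline (-0.68). No neighbours in this order differed beyond their spread. The gaps were 1.36, 0.13, 0.57, 0.18 and 0.15, against pooled SDs of 2.44, 1.58, 1.39, 0.33 and 0.34. Among all 15 pairs of groups, the values of LDH right and RVM saline alone did not overlap, and LDH right had 3 measured arrays.

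Within regions the same values gave 3 differences. Carrageenan minus saline was 2.25 in PAG by the means and 0.28 by the medians. In RVM it was 0.33 by the means and 0.31 by the medians, and -0.07 after quantile normalization, so its sign depended on the scaling. Left minus right in the LDH was -0.13 by the means and -0.43 by the medians. Without LDH left array 2 that difference of means was -0.93, further below 0. It was 0.36 without LDH right array 4, and 0.01, 0.20 and 0.13 without LDH left arrays 1, 4 and 5. The direction of the LDH difference thus turned when single arrays were left out. The PAG difference of means was 1.54 without PAG carrageenan array 4 and 1.36 without array 5. Its size came mainly from those arrays together.

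The place of feature 227 among the features measured on the same array does not change when the array is centred or rescaled. On PAG carrageenan arrays 4 and 5 it was the highest of 169 and of 86 measured features. On LDH left array 2 it ranked 6 of 168, and on LDH right array 4 it ranked 12 of 100. On the 12 measured arrays of PAG saline, RVM saline and RVM carrageenan, between 12.7% and 33.3% of the measured features lay below it. PAG carrageenan arrays 1, 2 and 3 had 39.2%, 26.8% and 26.5% below it. Feature 227 was thus in the lower part of the array wherever it was not near the top, with LDH left array 3 (54.1%) and LDH right array 3 (60.0%) in the middle.

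**Figure D2:**
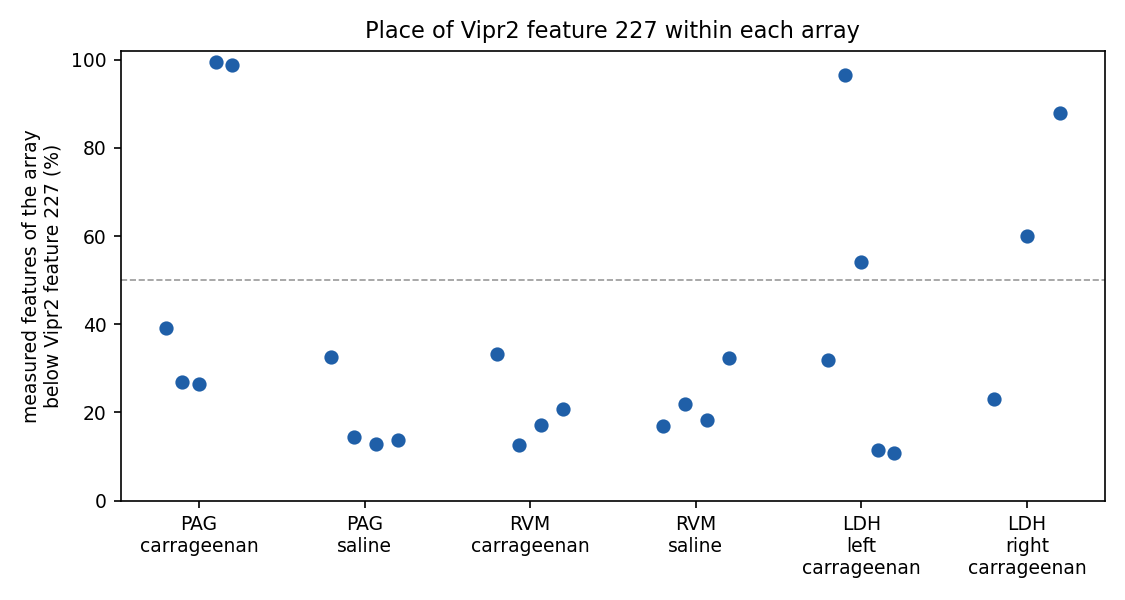
Share of an array's measured features whose log2 ratio lies below that of Vipr2 feature 227 (vertical axis, percent), 1 point per array, for the 6 groups; the dashed line marks the middle of the array. Points of PAG saline, RVM carrageenan and RVM saline lie between 12.7% and 33.3%, and PAG carrageenan arrays 4 and 5 are at 99.4% and 98.8%.

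Large ratios on single arrays were common in the table. Of 228 features, 50 exceeded 3 on at least 1 array, and 35 of those did so on 1 array only. Feature 227 exceeded 3 on 3 arrays, as did 3 other features: Adora2a feature 24, Il11 feature 118 and Il13 feature 121. No feature did so on more than 3. All 3 arrays with Vipr2 above 3 were from carrageenan-injected animals (PAG arrays 4 and 5, LDH left array 2), whereas Adora2a, Il11 and Il13 exceeded 3 on saline arrays as well. That contrast was noticed after the values were seen and was not tested. Carrageenan arrays were also the majority, since only 9 of the 28 arrays were after saline.

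The 2 features of Vipr2 did not give the same picture. Both had a ratio on 5 arrays. On PAG carrageenan arrays 1, 2 and 4, feature 226 read 1.08, 0.76 and 0.45 where feature 227 read -0.16, -0.57 and 4.57. On RVM saline arrays 3 and 4, feature 226 read -1.24 and 0.56 where feature 227 read -0.75 and -0.38. The signs were opposite on 3 of the 5 arrays. On PAG carrageenan array 4, where feature 227 was the highest of the array, the features differed by 4.12, and feature 226 was not measured on PAG carrageenan array 5 or LDH left array 2. The high ratios of feature 227 were therefore seen with a second feature on 1 array, and there feature 226 lay at 0.45.

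Opposite signs between features of 1 gene were common here, whereas a difference as wide as the widest of Vipr2 was not. In 553 pairs of features for the same gene, from 26 other genes, the signs were opposite in 49.2% and the median absolute difference was 0.94, against 1.25 for Vipr2. The widest Vipr2 difference was reached or passed in 22 of those pairs (3.98%). Pairs of 1 gene and of 1 array are not independent, so these shares are descriptions.

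The ligand VIP itself had 1 feature, 225, measured on 11 arrays. In PAG after carrageenan it read 1.37, -0.23, -0.98, 1.28 and 0.98 on arrays 1 to 5, a mean of 0.48 ± 1.04 (SD, n = 5). It was measured on none of the 5 PAG saline arrays. In RVM after saline it read -1.12, -0.092 and 0.46 on arrays 1, 2 and 4, and in RVM after carrageenan 3.49 on array 3. In the left LDH it read 3.13 and 1.24 on arrays 1 and 2. On the 3 arrays with feature 227 above 3, Vip lay at 1.28, 0.98 and 1.24. It was as high or higher on PAG carrageenan array 1, RVM carrageenan array 3 and LDH left array 1, where Vipr2 was below 0.

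Vipr1, the gene of the sister receptor, had feature 224, measured on 8 arrays. In PAG after carrageenan it read -0.36, 0.74, 0.10, -0.72 and 2.77 on arrays 1 to 5, a mean of 0.51 ± 1.38 (SD, n = 5). Its other values were -0.77 on PAG saline array 3, 1.02 on RVM saline array 3 and 3.47 on LDH left array 2. Both receptors were thus high on PAG carrageenan array 5 and LDH left array 2. They were apart on PAG carrageenan array 4, at -0.72 for Vipr1 and 4.57 for Vipr2. In PAG only Vipr2 of these 3 genes had values on several arrays of both injections, since Vip and Vipr1 had 0 and 1 measured PAG saline arrays. The PAG carrageenan arrays also measured more features as a whole (86 to 181) than the PAG saline arrays (33 to 95), and the part of this in the missing values was not tested.

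**Figure D3:**
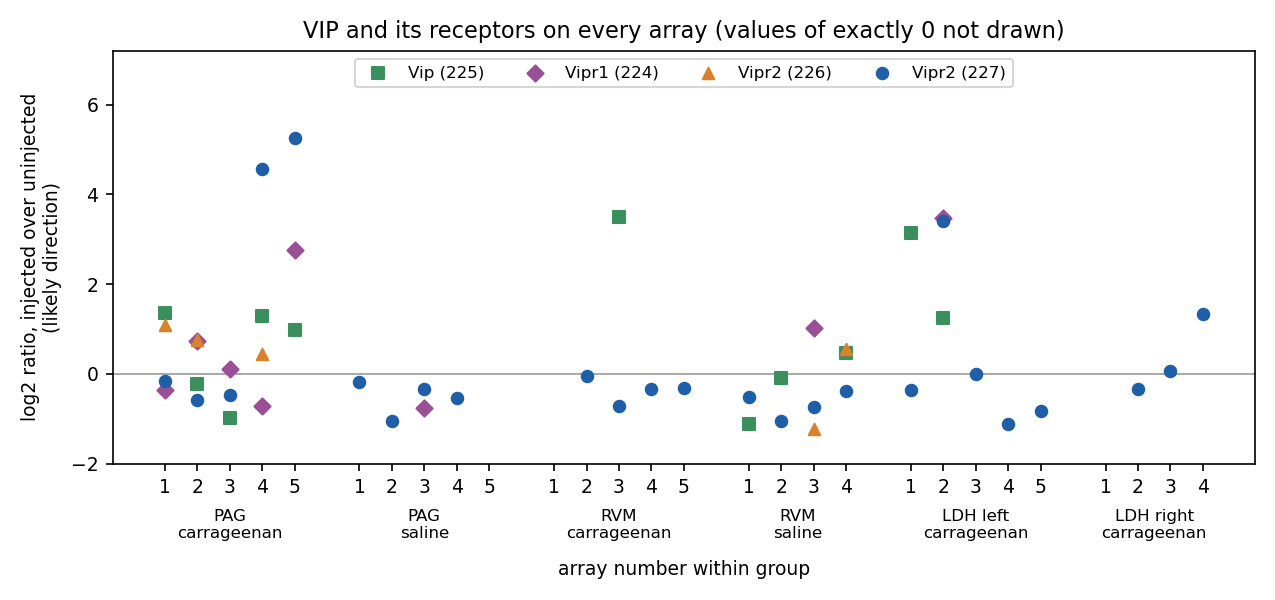
Log2 ratios of Vip (feature 225), Vipr1 (224) and Vipr2 (226 and 227) on every array (horizontal axis, numbered within the 6 groups); values of exactly 0 are not drawn. Vip and Vipr1 have a value on all 5 PAG carrageenan arrays and on few others, and on LDH left array 2 Vipr1 at 3.47 and Vipr2 at 3.42 nearly coincide.

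The other class B receptors on the array belong to the calcitonin family. Calcr, the calcitonin receptor, had features 45 and 200, measured on 2 and 9 arrays with ratios from -5.34 to 1.07 and from -2.06 to 0.87. Calcrl, which forms the receptor for the sensory peptide CGRP, had feature 46 on 3 arrays, with ratios from -5.21 to -0.12. None of the features of Vip, Vipr1, Calcr or Calcrl had 3 measured arrays in both groups of a region, so no comparison could test them. The genes of PACAP and of its own receptor were looked for and were not among the named features.

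Other receptors that raise cyclic AMP, as VPAC2 does, were tested with limma, with Benjamini-Hochberg adjustment. It fits a linear model to each feature and draws on all features for the estimate of spread. Besides Vipr2, 11 such genes were on the array with 13 features, of which 4 could be tested in PAG, 2 in RVM and 0 in the LDH. Between carrageenan and saline none passed an adjusted p of 0.05 in PAG or RVM, where 0 of 78 (0.0%) and 0 of 56 (0.0%) of all features passed. Htr4, a serotonin receptor, averaged 0.58 ± 0.50 after carrageenan in PAG (SD, n = 5) and -0.28 ± 0.31 after saline (SD, n = 4). Its difference of 0.85 (95% interval 0.22 to 1.49) had an adjusted p of 0.333 by limma. In RVM its difference was -0.59 (95% interval -1.29 to 0.10). The features of Adora2a, an adenosine receptor, went opposite ways in PAG: feature 24 differed by -1.52 (95% interval -3.18 to 0.13) and feature 23 by 0.46 (95% interval -1.75 to 2.67). Adrb3, a beta-adrenergic receptor, differed by 0.66 (95% interval -0.34 to 1.67) in PAG and by -0.51 (95% interval -1.65 to 0.63) in RVM. The median difference over the 4 features in PAG was 0.56, against 0.14 over all 78 features, and over the 2 in RVM it was -0.55, against -0.10 over all 56.

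Against the uninjected controls, 11 of 78 features (14.1%) passed in PAG carrageenan, 7 higher and 4 lower. The balance turned with zeros kept as 0 (9 called, 1 higher) and with the array number as a block (3 called, 1 higher). With the group alone it turned too (1 called, 0 higher). It turned without PAG carrageenan array 1 (3 called, 1 higher), 2 (1 called, 0 higher) or 4 (4 called, 1 higher). Without PAG saline arrays 1, 3 and 4 it also turned (7, 6 and 6 called, with 3, 2 and 2 higher). At least 2 measured arrays per group gave 12 called, 6 higher. Of the 4 features of receptors that raise cyclic AMP (Htr4, Adrb3 and both of Adora2a), 0 passed by limma; Htr4, with the smallest p, averaged 0.58 (adjusted p = 0.0781). Of 7 tested features of class A neuropeptide receptors 1 passed, Ntsr1, a neurotensin receptor (1.25, 95% interval 0.44 to 2.07, adjusted p = 0.049 by limma, above 0 on 5 of 5 arrays). The call was lost with any one of the 10 PAG arrays left out. Without PAG carrageenan array 5, for example, its adjusted p was 0.0817 by limma. The call was also lost with zeros kept as 0 (0.0683), at least 2 measured arrays (0.0532), median centring (0.0524) and quantile normalization (0.149). With the array number as a block (0.076) and with the group alone (0.207) it was lost too. In 1 fit of all 6 groups it held (0.0172). Of 10 neuropeptide precursor features 2 passed, both higher. These were Pdyn, the dynorphin precursor (0.97, 95% interval 0.51 to 1.44, adjusted p = 0.0224, above 0 on 4 of 4 arrays), and Nts, the neurotensin precursor (feature 184, 0.57, 95% interval 0.27 to 0.87, adjusted p = 0.0227, above 0 on 5 of 5 arrays). Neither passed by limma without PAG carrageenan array 1, 2 or 4, and Nts also not without array 5 (adjusted p from 0.0577 to 0.0722). Both were also lost in 1 fit of all 6 groups (adjusted p 0.418 for Pdyn and 0.466 for Nts), with the array number as a block (0.076 each), after quantile normalization (0.149 each) and with the group alone (0.149 each), and Pdyn with zeros kept as 0 (0.0599). The count of 11 was 3, 1, 6 and 4 without PAG carrageenan arrays 1, 2, 3 and 4, and 7, 6 and 6 without PAG saline arrays 1, 3 and 4.

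In RVM saline against uninjected controls 3 of 56 features passed (5.36%), all lower. They included Grik3 feature 88 and feature 76 of the GABA-B subunit gene Gabbr1. The Vipr2 feature by which the gene was chosen was among the 56, and no test of it is read. The counts and shares of this paragraph are therefore not a background independent of that choice. Without RVM saline array 2 or 3 the count was 0. Without array 4 it was 9, of which 6 were higher, and with zeros kept as 0 it was 9, of which 3 were higher. In RVM carrageenan 1 of 56 passed (1.79%), Grik3 feature 88, and without RVM carrageenan array 1, 3 or 5 none did. In PAG saline 0 of 78 passed (0.0%), with 9 at an unadjusted p below 0.05. In the left and right LDH 0 of 29 passed in each (0.0%), with 5 and 1 at an unadjusted p below 0.05. With Vipr2 left out of the lists, 0 of the listed receptors and precursors tested passed by limma outside PAG carrageenan.

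For each list, the feature with the smallest p in each of these groups had the following mean, and none passed by limma. The second feature of 1 list can have a smaller p than the first of another. In RVM saline Tacr2, a tachykinin receptor, averaged 0.62 (adjusted p = 0.072), Htr4 0.65 (0.094) and Tac1 feature 55, the substance P precursor, 1.22 (0.094). In RVM carrageenan Penk feature 194, the enkephalin precursor, averaged -0.90 (adjusted p = 0.511 by limma), Ntsr1 0.44 and Htr4 0.05. In PAG saline Adora2a feature 24 averaged 1.45, Pdyn 0.49 (adjusted p = 0.383 by limma for each) and feature 201 of the somatostatin receptor gene Sstr2 0.56. In the dorsal horn, Oprm1, the mu opioid receptor, averaged -1.19 on the left (adjusted p = 0.275 by limma) and -0.83 on the right. The precursors with the smallest p there were Sst, of somatostatin, on the left (0.29) and Tac1 feature 55 on the right (0.96).

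Between groups the neighbouring lists gave no calls by limma either. In PAG, class A neuropeptide receptors were higher after carrageenan in 5 of 7 features (median 0.06) and precursors in 8 of 10 (median 0.41). The median over all 78 features there was 0.14. Tac1, Penk and Pomc each gave more than 1 of these precursor features. In RVM the receptors were higher in 1 of 5 (median -0.11) and the precursors in 1 of 6 (median -0.67). The median over all 56 features there was -0.1. No share of all features is set beside these counts, so they do not set the lists apart. Between left and right LDH they were higher on the left in 1 of 3 (median -0.06) and 2 of 3 (median 0.18), where the median over all 29 features was 0.18 and 0 passed (0.0%). Among precursors the smallest p was that of Tac1 feature 55, which differed by 0.75 in PAG (95% interval 0.05 to 1.45, adjusted p = 0.381 by limma) and by -1.28 in RVM (95% interval -2.59 to 0.02, adjusted p = 0.465), and by -0.54 between left and right LDH (95% interval -2.47 to 1.39). Among class A receptors it was that of Ntsr1 in PAG, which differed by 1.25 there (95% interval 0.09 to 2.41, adjusted p = 0.381 by limma) and by 0.04 in RVM (95% interval -0.95 to 1.04). In RVM it was that of Sstr5, a somatostatin receptor (-1.10, 95% interval -2.01 to -0.18, adjusted p = 0.465 by limma), and in the LDH that of Sstr2 feature 213 (0.31, 95% interval -0.51 to 1.13). Tacr2 came next in both PAG and RVM and differed by 1.09 in PAG (95% interval -0.53 to 2.72) and by -0.59 in RVM (95% interval -1.14 to -0.05), with adjusted p of 0.432 and 0.465 by limma. Features with an unadjusted p below 0.05 numbered 10 in PAG, 4 in RVM and 0 in the LDH.

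Features were then ranked by how closely they followed feature 227 across arrays. Pearson r was taken over arrays that measured both, for 116 features with at least 10 such arrays, and the median r was 0.09. Arrays share slide, RNA and spread, and r is a description here. The most alike were Pomc feature 191, the precursor of beta-endorphin (r = 0.80 over 19 arrays), Slc6a2 feature 204, the noradrenaline transporter (0.78 over 11), and Ntsr1 feature 158 (0.77 over 19). Next came Il1r1 feature 98, an interleukin 1 receptor (0.72 over 10), and Ntf3 feature 159, the neurotrophin NT-3 (0.68 over 20). The least alike were Hrh3 feature 95, a histamine receptor (-0.52 over 25), Gabra3 feature 66, a GABA-A subunit (-0.51 over 10), and Htr1d feature 8, a serotonin receptor (-0.46 over 21).

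These likenesses rested mostly on the 3 arrays with Vipr2 above 3, which form a cluster of their own. Over the remaining arrays r was -0.04 for Pomc, -0.08 for Slc6a2, 0.01 for Ntsr1 and -0.20 for Ntf3. It stayed at 0.68 for Il1r1, over 8 arrays. For Hrh3 it was -0.43 over 22 arrays, for Gabra3 -0.53 over 8 and for Htr1d -0.23 over 19. Without the 2 shared arrays farthest from the median of feature 227, r was 0.02 for Pomc, -0.08 for Slc6a2, 0.78 for Ntsr1, 0.68 for Il1r1 and 0.12 for Ntf3. For Ntsr1 the arrays left out were PAG carrageenan arrays 4 and 5, so LDH left array 2 stayed in. The 0.78 rested on that array, since r was 0.01 without all 3.

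Ntsr1 was high on each of those 3 arrays. It read 1.91 and 3.01 on PAG carrageenan arrays 4 and 5 and 4.37 on LDH left array 2, and at most 1.499 on the other 16 shared arrays (median 0.31). Pomc read 1.61, 1.13 and 0.089 there, and between -0.17 and 0.39 on 16 others. Ntf3 read 0.62, 3.54 and 0.42, and at most 0.57 on 17 others. Hrh3 read -0.25, 0.015 and -0.34, and between -0.14 and 1.28 on 22 others. The other features above 3 differed between the 3 arrays. They were Tacr2, Il10, Hrh1 and Il1b on PAG carrageenan array 4, Adora2a feature 23, Ntf3, Sstr1 feature 212 and Ntsr1 on array 5, and Il18, Nts, Ntsr1, Il11, Vipr1 and Pdyn on LDH left array 2.

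**Figure D4:**
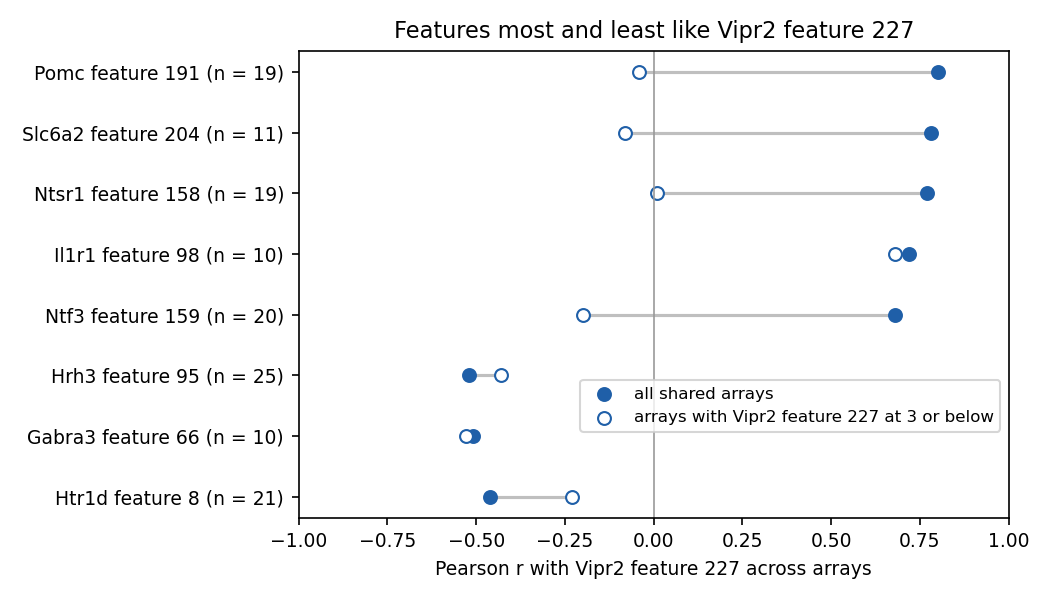
Pearson r with Vipr2 feature 227 across arrays (horizontal axis) for the 5 most and the 3 least alike features (vertical axis, with the number of shared arrays); filled circles use all shared arrays, open circles those with feature 227 at 3 or below. For Pomc, Slc6a2, Ntsr1 and Ntf3 the open circles lie between -0.20 and 0.01, while Il1r1 keeps 0.68.

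Facts of the arrays bear on all of this. Arrays gave ratios for 7 to 195 of 228 features, 55.9% of all values were 0, and array medians lay between -0.061 and 0.083. Over 348 pairs of arrays with enough shared features the median r was 0.266, and 7 pairs were below -0.3, the lowest at -0.511. The labelled regions could not be checked against marker genes: the table gives ratios, not levels, and 2 of 19 markers of cell types were among the named features. These were the serotonin transporter Slc6a4 and the noradrenaline transporter Slc6a2, and the 10 listed markers of glia and 2 of endothelium were not among them. Slc6a4 averaged 0.88 ± 0.39 in PAG carrageenan (SD, n = 4) and 0.48 ± 0.19 in PAG saline (SD, n = 3). It averaged 0.19 ± 0.23 in RVM carrageenan (SD, n = 3), read -1.55 and 1.21 on 2 RVM saline arrays and had no value in the LDH. The features of Slc6a2 did not match: in PAG carrageenan feature 203 averaged -1.38 ± 1.04 (SD, n = 5) and feature 204 0.29 ± 1.20 (SD, n = 4). The part of these genes in the Vipr2 ratios was not tested.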

How the data were processed

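The table the authors deposited gives, for every array, a log2 ratio of both channels for each feature; it does not state log base, centring or direction. Base 2 was inferred from the range of values (-13.245 to 10.459). Per the labels' protocols, 5 µg of total RNA per sample was reverse transcribed and labelled with Alexa 647 (channel 1, injected) or Alexa 546 (channel 2, uninjected). Scanning, background correction and normalization are not given in the sources used here.

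Gene names came from the platform annotation and were brought up to date with a RefSeq gene table (GRCr8). Of 228 features 202 had 1 symbol and 26 none; 191 matched the table and 11 kept the annotation's name. Exact zeros were treated as missing. In R 4.3.3, limma 3.58.1 (two-sided, lmFit with eBayes, no covariates) was fitted on the arrays of a region, to features with at least 3 measured arrays in each group. Each of 9 comparisons was adjusted by Benjamini-Hochberg over all features tested (threshold 0.05); a group against uninjected controls was its mean against 0. The fit was also run on simulated ratios. These had less spread than the median feature of PAG carrageenan (SD 0.66) and larger shifts than those of Ntsr1, Pdyn and Nts. That run therefore cannot show how well effects of the sizes seen here are found. Precision is limited by the number of arrays.

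Named genes were all VIP family and class B features, from the other lists those that passed or, where none did, up to 3 with the smallest p in a comparison, and the 5 most and 3 least alike. The gene, the lists and the alternatives were chosen with earlier results of these data known. Alternatives were zeros kept as 0, at least 2 measured arrays per group, median centring, quantile normalization, array SD scaling, group medians, 1 fit of all 6 groups, a group alone, the array number as a block, and each array left out. For likeness they were Spearman's rho, within-group deviations and SD scaling. Leaving out arrays with fewer than 40 features, and the 2 farthest arrays from likeness, were added after seeing the data.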

Additional observations from a re-analysis of the deposited data

Results flagged for a closer look

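LDH left array 2 stood apart from the other arrays of its group for Vipr2 feature 227. It read 3.415, where the next highest array of that group read 0.005, a gap of 0.753 of the group's range. The gene was chosen by these values, so the gap is a description and no test. A gap to the nearest array cannot mark 2 high arrays of 1 group: PAG carrageenan arrays 4 and 5, at 4.57 and 5.26, lie near each other (gap 0.119 of the range). Such gaps were looked for in 7 sets, each of 1 Vip, Vipr1 or Vipr2 feature in 1 group. Chance sets apart an array in about 1 of 20 such sets, but that rate does not hold for a gene chosen by its values. Without LDH left array 2 the group mean was -0.57.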

How the results depend on the processing

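For the group means and differences of Vipr2 feature 227, 53 of 54 values under other settings moved by less than the SD between arrays. The exception was carrageenan minus saline in RVM, at -0.07 after quantile normalization. Since the SD of PAG carrageenan is 2.93, this says little there: its group median was -0.16 against a mean of 1.72. With arrays left out in turn, means ranged from 0.84 to 2.30 in PAG carrageenan, -0.64 to -0.35 in PAG saline, -0.45 to -0.23 in RVM carrageenan, -0.78 to -0.55 in RVM saline, -0.57 to 0.56 in LDH left and -0.13 to 0.70 in LDH right. Differences ranged from 1.36 to 2.82 in PAG, 0.20 to 0.45 in RVM and -0.93 to 0.36 in the LDH.

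Of the 5 most alike features, 2 remained by Spearman's rho, 2 by deviations from group means, 3 with zeros kept as 0 and 2 without the 2 farthest arrays.

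Counts of features called by limma also moved, and the cause was not tested. With zeros kept as 0 they were 1 for carrageenan against saline in PAG, 4 in RVM, 9 for RVM saline and 0 for RVM carrageenan against controls. In 1 fit of all 6 groups they were 1 (PAG carrageenan against saline), 7 (PAG carrageenan), 1 (PAG saline), 0 (RVM carrageenan) and 0 (RVM saline). After quantile normalization they were 0 (PAG carrageenan), 4 (PAG saline) and 1 (RVM saline). With a group alone they were 1 (PAG carrageenan), 0 (RVM carrageenan) and 1 (RVM saline). With at least 2 measured arrays, 1 was called between RVM groups. With arrays left out, counts ranged from 1 to 9 in PAG carrageenan, 0 to 1 in PAG saline, 0 to 1 in RVM carrageenan, 0 to 9 in RVM saline and 0 to 1 between RVM groups, and were 0 throughout in the other 4 comparisons.

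With the array number as a replicate block, 3 features were called in PAG carrageenan, 0 in RVM carrageenan, 0 in RVM saline and 1 in LDH left, with no other count moved. Nothing in the labels pairs the arrays by number, and same-numbered arrays did not deviate together (r from -0.779 to 0.375), so the numbers were not treated as pairs.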
